A study of Mus musculus with 4 samples.

Results

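The Hox cluster genes are the homeobox genes that lie side by side in the Hoxa, Hoxb, Hoxc and Hoxd clusters of the mouse genome. The 38 genes described here were matched by gene symbol to the gene named for each region in a list of Zeb1 peaks from mouse embryonic stem cells (mESC). They comprised 10 genes of Hoxa, 10 of Hoxb, 9 of Hoxc and 9 of Hoxd, among 21000 protein-coding genes with a curated RefSeq transcript. Of the 17435 peaks of the list, 41 were assigned to a Hox gene, 12 in Hoxa, 9 in Hoxb, 12 in Hoxc and 8 in Hoxd.

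Zeb1 binding was measured by chromatin immunoprecipitation and sequencing (ChIP-seq) in D3 cells, an established mESC line, at passages 5 to 8. All libraries came from cells without feeders in ground state medium (GS), N2B27 to which PD0325901 (1 μM, against MEK), CHIR99021 (3 μM, against GSK-3) and LIF (20 ng/mL) had been added. After fixation in 1% formaldehyde and shearing to fragments near 200 bp, 3 Zeb1 ChIP libraries, made with 8 μg of the H-102 antibody, were set against 1 input library made without antibody. The list gives 1 mean value per peak and none per library, so no SD could be given and no test between libraries was possible. How many values each mean holds is not known here. The list does not give the aligned depth of the libraries, from which the authors drew equal numbers of reads before alignment. As ChIP-seq gives no expression, the cell type was not checked against marker genes.

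Hox genes encode homeodomain transcription factors that give cells their position along the head-to-tail axis. Within a cluster the genes are transcribed in the same direction and their order on the chromosome follows the order of their expression domains, with low paralogue numbers in anterior and high numbers in posterior structures. In pluripotent cells the clusters are known to be largely silent and covered by Polycomb chromatin. Zeb1 is a zinc finger and homeodomain factor that binds E-box sequences and mostly represses its targets.

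The sequences that bear on the binding of Zeb1 are the matches to its motif in the peak with the highest enrichment within 5 kb of a transcription start site (TSS) in each cluster. The motif reads C or T, any base, C or T, and then ACCTG, and it was searched on both strands. Capitals mark the match, and each sequence is written 5′ to 3′ on the strand that carries it, from RefSeq GRCm38.p6. The Hoxa13 peak had 1 match, on the minus strand within chr6:52261184-52261243, 334 bp upstream of the TSS and outside curated transcripts. The Hoxb3 peak had 2 matches, both on the plus strand. They lay within chr11:96344344-96344403, in coding exon 1 of 2 of the shorter transcript, and within chr11:96346378-96346407, in coding exon 2 of 2. The Hoxd11 peak had 2 matches as well. The upstream match was on the plus strand within chr2:74682407-74682466, in coding exon 1 of 2 and 114 bp downstream of the TSS. The downstream match was on the minus strand within chr2:74683139-74683198, in intron 1, and the bases shown reach into that exon.
Hoxa13: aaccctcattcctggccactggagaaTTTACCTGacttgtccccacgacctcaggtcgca
Hoxb3 exon 1: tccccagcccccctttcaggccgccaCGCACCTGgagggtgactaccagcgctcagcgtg
Hoxb3 exon 2: gcccaaactgaCACACCTGtgatgggaggg
Hoxd11 exon 1: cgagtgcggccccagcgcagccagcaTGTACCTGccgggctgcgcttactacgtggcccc
Hoxd11 intron 1: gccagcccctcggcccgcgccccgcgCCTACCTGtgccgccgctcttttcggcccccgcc

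The Hoxc12 peak, which had the highest enrichment of its cluster near a TSS, held no match of these letters. A match is a description of the sequence and was not tested as a binding site.

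Most Hox genes had a Zeb1 peak in each of the 4 clusters. At least 1 peak was assigned to 30 of the 38 genes, or 78.9%, beside 53.3% of all protein-coding genes. In Hoxa 8 of 10 genes had an assigned peak, in Hoxb 7 of 10, in Hoxc 8 of 9 and in Hoxd 7 of 9. The counts thus differed by at most 1 gene between clusters, and with 9 or 10 neighbouring genes in each, no order between them was read from these counts. Each of the 30 genes had an assigned peak within 5 kb of the TSS, which 45.1% of all protein-coding genes had. With an enrichment of at least 5, 28 Hox genes had an assigned peak, beside 43.6% of all genes. The 2 genes lost at this limit were both in Hoxd, where 5 of 9 genes were left, and were Hoxd3 and Hoxd10, named after their values were seen. This count follows the assignment of peaks. The body of Hoxd3 was also overlapped by peaks assigned to Mir10b, with enrichments of 5.70, 7.09 and 4.00. A peak assigned to LOC102634401, with 6.30, overlapped it as well.

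Each peak is assigned to 1 gene only, and Hox genes lie close together, so the genes were also compared with the positions of the peaks. A TSS lay inside a peak for 32 of the 38 genes, beside 47.8% of all protein-coding genes. This was so for 9 of 9 genes in Hoxc, 8 of 10 in Hoxa, 8 of 10 in Hoxb and 7 of 9 in Hoxd. Any peak was centred within 5 kb of a TSS for 34 Hox genes, beside 51.5% of all genes. The gene body was overlapped by a peak for 35, beside 53.7%.

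**Figure D1:**
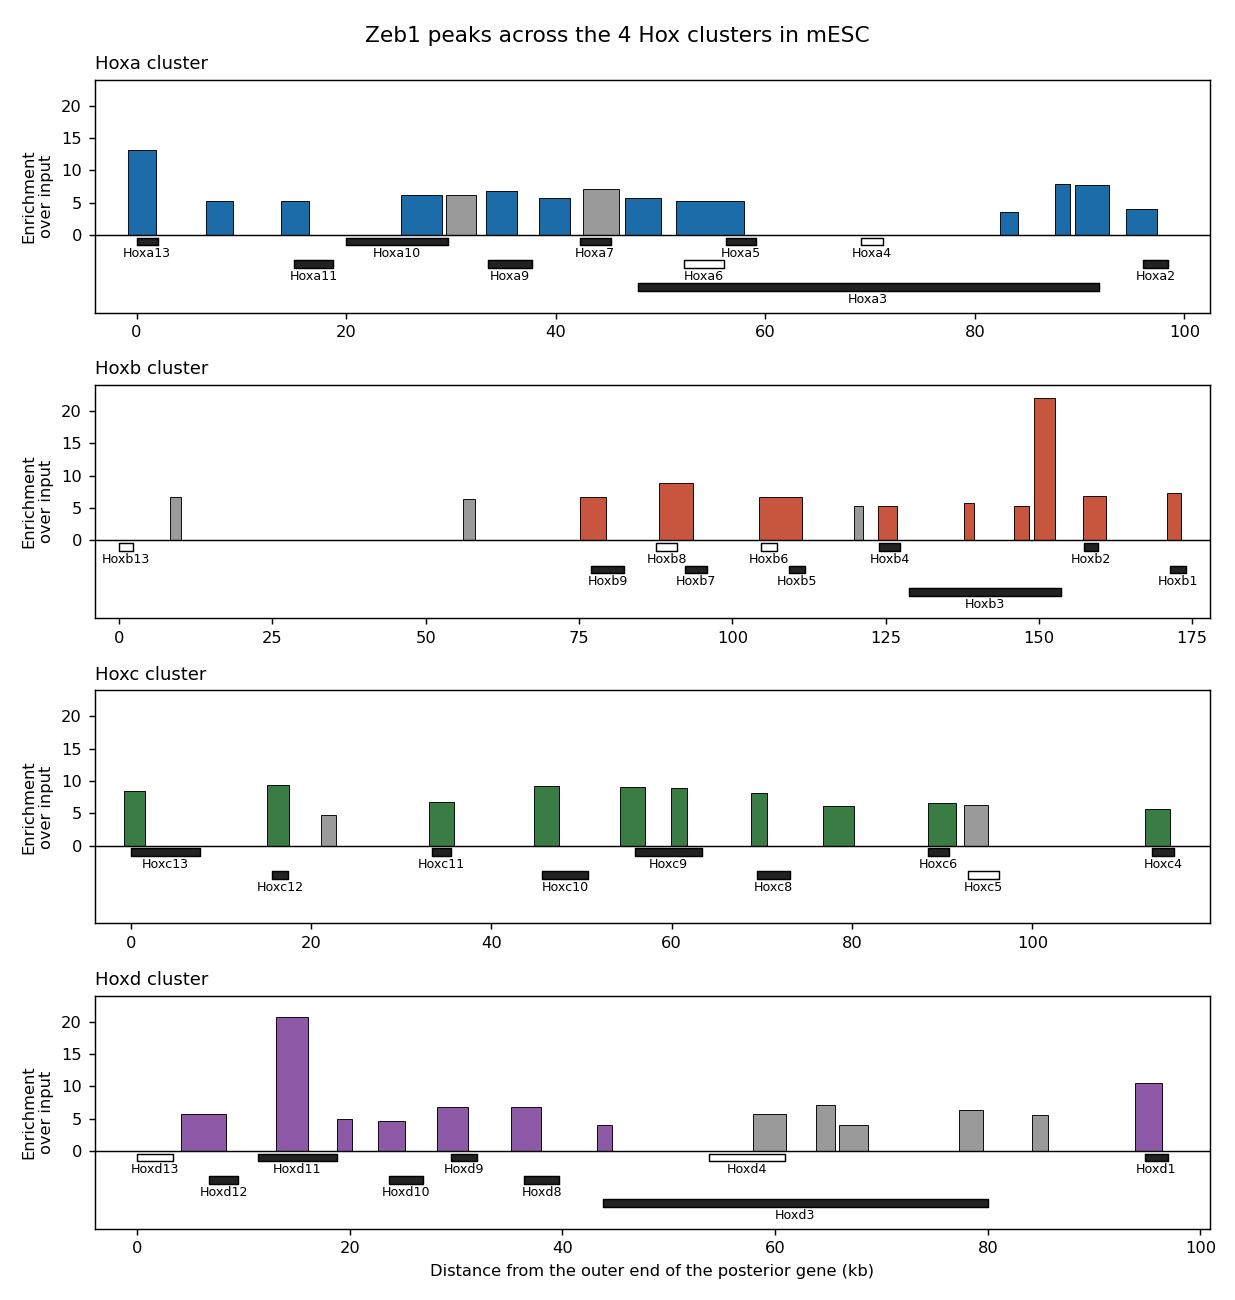
Zeb1 peaks (bars, with the enrichment over input as height and peak length as width, coloured where assigned to a listed Hox gene and grey where assigned to another gene) along the 4 clusters, with distance in kb from the outer end of the gene of highest paralogue number and genes as boxes, open where no peak was assigned. Hoxb3 and Hoxd11 stand out with 22.0 and 20.7, and 24.5 kb around Hoxa4 and 46.1 kb between Hoxb13 and Hoxb9 hold no peak.

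The map of the clusters shows peaks along most of their length. From the first to the last listed gene, Hoxa runs over chr6:52162417-52260880, Hoxb over chr11:96194316-96368253, Hoxc over chr15:102921131-103036852 and Hoxd over chr2:74668225-74765142 (mm10). Hoxa is transcribed from the minus strand and the other clusters from the plus strand. These spans held 14 peaks in Hoxa, 12 in Hoxb, 12 in Hoxc and 13 in Hoxd, including peaks assigned to other genes.

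Peaks were dense in the clusters. The 4 spans together had 10.5 peaks per 100 kb, and the genome had 0.659. Peaks covered 29.4% of the bases of the spans and 1.39% of those of the genome. Hoxa had 14.2 peaks per 100 kb and 42.8% of bases in peaks. Hoxd followed with 13.4 peaks per 100 kb and 33.2%, and Hoxc had 10.4 and 25.4%. Hoxb had the fewest, 6.90 peaks per 100 kb and 22.2%, but its span includes the long stretch between Hoxb13 and Hoxb9. Without that stretch, from Hoxb9 to Hoxb1, Hoxb had 10.3 peaks per 100 kb and 34.2% of bases. It then still had the fewest peaks per 100 kb, but was above Hoxc and Hoxd in the share of bases covered. The order by peaks per 100 kb also changed with the definition of a peak. With peaks closer than 1 kb joined it was 12.4 in Hoxd, 10.2 in Hoxa, 9.51 in Hoxc and 6.32 in Hoxb. With an enrichment of at least 5 it was 12.2 in Hoxa, 9.51 in Hoxc, 9.29 in Hoxd and 6.90 in Hoxb. From Hoxb9 to Hoxb1, Hoxb had 9.29 with peaks joined, still the fewest. With an enrichment of at least 5 this stretch had 10.3, above Hoxc and Hoxd.

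Genes are dense in the clusters too. The spans held 7.83 protein-coding genes per 100 kb, against 0.793 in the genome, and 1.34 peaks per protein-coding gene, against 0.830. Repeats masked in the reference made up 13.4% of Hoxa, 24.6% of Hoxb, 15.9% of Hoxc and 14.4% of Hoxd, and 36.4% of the genome. Within 50 kb on either side, the median Hox peak had 8 other peaks and the median peak of the list had 1. The part of gene density and of repeats in the density of peaks was not tested.

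**Figure D2:**
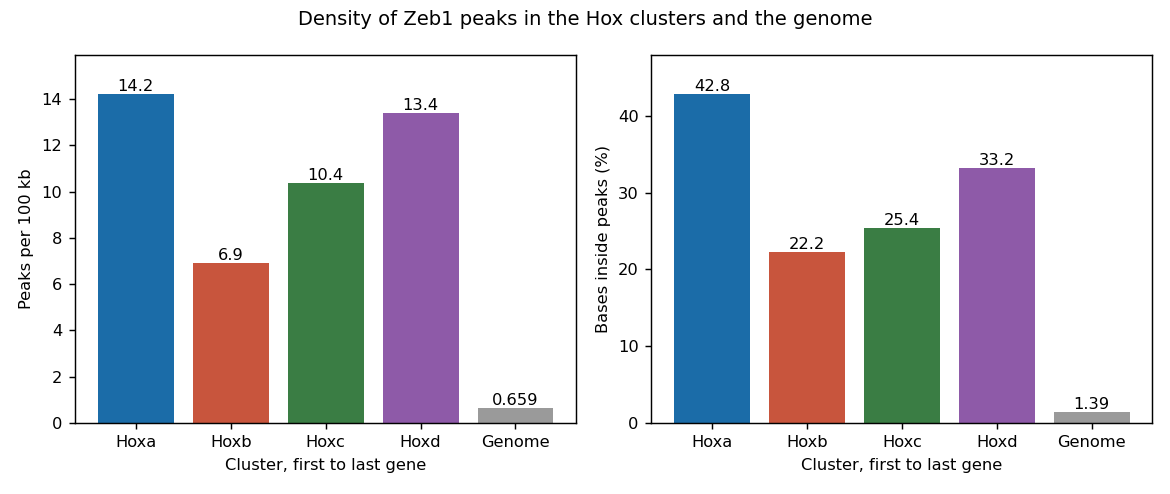
Zeb1 peaks per 100 kb (left) and percentage of bases inside peaks (right) from the first to the last listed gene of each cluster and over the genome. Each cluster is above the genome in both, with 6.90 to 14.2 peaks per 100 kb against 0.659.

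The plot of peak density is one of position only, and the height of the peaks was not raised in the same way. Enrichment is the authors' value scaled for mapped reads and is not the ratio of the mean reads printed beside it. It was 1.82 to 2.34 times that ratio in Hox peaks, with a median of 2.05, and the median was 2.07 over the 17428 peaks of the list with input reads. The median enrichment over input was 6.73 for the 41 Hox peaks and 6.50 for all peaks, so that the median Hox peak stood above 53.5% of the list. Among the best peak of each gene within 5 kb of the TSS, the median was 6.77 for the 30 Hox genes and 6.84 for the 9465 protein-coding genes with such a peak. Hoxc had the highest median enrichment, 8.31, with a range of 4.63 to 9.44. Hoxb followed with 6.73 (5.25 to 22.0), Hoxd with 6.28 (4.10 to 20.7) and Hoxa with 5.79 (3.55 to 13.1). The ranges of the clusters overlapped, and their order was another by treatment reads per kb of peak.

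Hox peaks were long and had many reads. Their median length was 2750 bp, against 1850 bp for all peaks, and 83.7% of all peaks were shorter than that. The median number of treatment reads was 65.4, against 47.4, and that of input reads was 19.3, against 16. Per kb of peak, Hox peaks had a median of 24.2 treatment reads and all peaks 25.1, so the higher reads went along with the length. As the number of values in each mean is not known, reads per kb describe these means and are not read densities. Hoxa peaks had the most treatment reads, with a median of 81.8, and also the most input reads, with 28.0. In Hoxc the medians were 56.3 treatment and 17.1 input reads, in Hoxb 71.5 and 19.0, and in Hoxd 54.0 and 18.3.

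**Figure D3:**
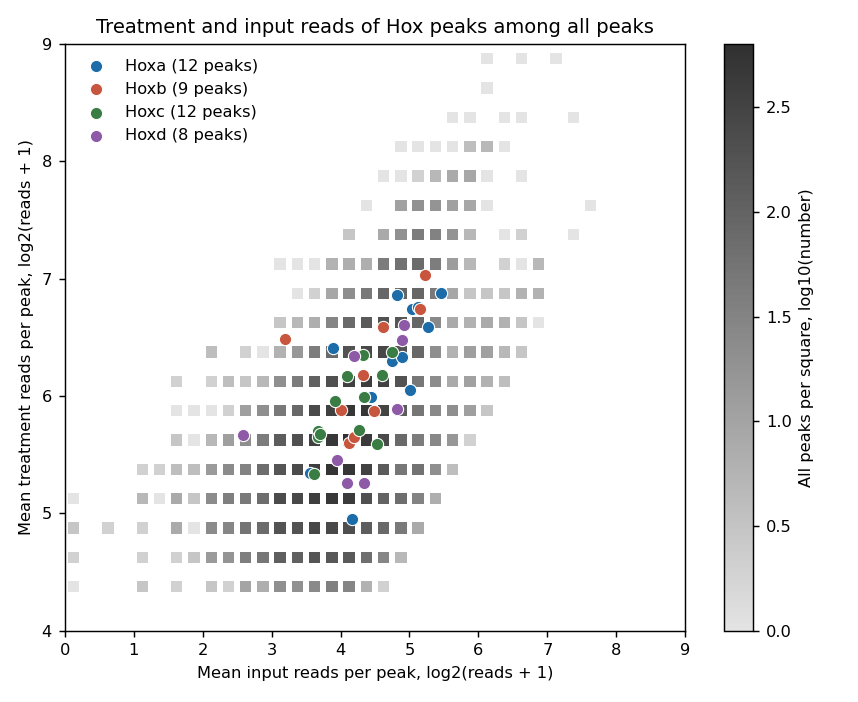
Mean treatment reads against mean input reads per peak, both as log2(reads + 1), for the 41 Hox peaks (points, coloured by cluster) over the number of all peaks (grey squares, except for 2 peaks beyond the axes). Hox peaks lie within the range of all peaks, and the Hoxb3 peak with 8.14 input reads and the Hoxd11 peak with 5 lie to the left of the other Hox peaks.

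In the plot of reads, the 3 peaks of highest enrichment, at Hoxb3, Hoxd11 and Hoxa13, had few input reads for their length. Across the 41 Hox peaks, Spearman's rho was -0.68 between enrichment and input reads per kb and 0.12 between enrichment and treatment reads per kb. Across all 17435 peaks these were -0.66 and 0.34. The peaks share their libraries and the input is part of the enrichment, so these values only describe the list.

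Anterior genes, of paralogue groups 1 to 4, pattern the hindbrain, the branchial arches and the neck. Of these, 9 of 11 had an assigned peak, beside 53.3% of all protein-coding genes. Hoxb3, which acts in the hindbrain and pharyngeal arches, had 3 peaks and the highest enrichment of all Hox genes. Its peak at chr11:96343551-96346900, centred 1456 bp downstream of the TSS in an intron, had an enrichment of 22.0, above 99.1% of the list, beside 88.4 treatment and 8.14 input reads. Its treatment reads were above those of 89.6% of all peaks and, per kb, of 56.4%. Of all peaks, 8.83% had fewer input reads and 1.22% had fewer per kb. The part of the low input in this enrichment was not tested. The other Hoxb3 peaks were in introns of the longer transcript, at chr11:96332101-96333700 with an enrichment of 5.80 (49.2 treatment and 17.4 input reads) and at chr11:96340301-96342700 with 5.35 (57.5 and 21.5).

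Hoxa2, which is needed for the identity of the second branchial arch, had the most peaks of a Hox gene, 4 of them. The peak over its TSS, chr6:52163501-52166500, was centred 169 bp upstream and reached 3.97 with 65.4 treatment and 31.3 input reads. Further upstream, chr6:52168051-52171300 had an enrichment of 7.81 (116 treatment and 27.3 input reads) and chr6:52171801-52173250 one of 7.94 (39.6 and 10.7). The farthest, chr6:52176801-52178450, was centred 12794 bp upstream and had an enrichment of 3.55 (30 treatment and 17 input reads), the lowest of all Hox peaks. These 3 upstream peaks were centred inside Hoxa3, in its 3′ UTR, a coding exon and an intron. The deposited assignment thus gave to Hoxa2 peaks that lay in the body of its neighbour.

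Hoxc4, the most anterior gene of Hoxc, had 3 peaks, of which 2 lay outside the cluster. The peak over its TSS, chr15:103033651-103036350, had an enrichment of 5.72 beside 51.4 treatment and 18.2 input reads. The others were intergenic, at 26755 and 51905 bp downstream of the TSS. The nearer, chr15:103060201-103062100, had an enrichment of 4.63 (47.3 treatment and 22 input reads), and the farther, chr15:103085301-103087300, one of 8.88 (80.4 and 19). Hoxd1, at the anterior end of Hoxd, had a peak at chr2:74762101-74764650 with an enrichment of 10.6 beside 80.1 treatment and 17.3 input reads. It was centred in coding exon 1 of 2, 395 bp downstream of the TSS. For the remaining anterior genes with a peak, Hoxa3, Hoxb1, Hoxb2, Hoxb4 and Hoxd3, the assigned peaks had enrichments between 4.10 and 7.40.

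Central genes, of paralogue groups 5 to 8, pattern the trunk. An assigned peak was found for 7 of 11, near the 53.3% of all protein-coding genes, while 9 of 11 had a TSS inside a peak, beside 47.8%. The longest peaks of the Hox genes were here and reached over 2 genes. The Hoxb5 peak, chr11:96298601-96305650, was 7050 bp long, and had an enrichment of 6.69 beside 129.8 treatment and 36.5 input reads, the most of both in Hoxb. It held the TSSs of Hoxb5, which acts in the neural crest of the gut, and of Hoxb6. The Hoxa5 peak, chr6:52202951-52209400, was 6450 bp long, and had an enrichment of 5.31 beside 117 treatment and 42.8 input reads. It held the TSSs of Hoxa5, which acts in lung development, and of Hoxa6. Of all peaks, 99.4% were shorter than the Hoxb5 peak and 99.2% than the Hoxa5 peak.

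Hoxb7 had the peak of the 2nd highest enrichment in Hoxb, 8.86, at chr11:96282351-96287900, beside 95.1 treatment and 23.6 input reads. Its centre was in the 3′ UTR of Hoxb8. The longest peak of Hoxc was assigned to Hoxc8, a gene of the thoracic level, and lay 9061 bp downstream of its TSS, at chr15:102997901-103001300. It was 3400 bp long, with an enrichment of 6.10 beside 71.3 treatment and 23.2 input reads. The list annotates it as a promoter at an Ensembl start site, and it held no TSS of a curated transcript. The peak over the Hoxc8 TSS was shorter, 1750 bp, with an enrichment of 8.13. Hoxa7, Hoxc6 and Hoxd8 had enrichments of 5.77, 6.63 and 6.85. The peak assigned to Hoxa7 was centred 2427 bp upstream of its TSS and did not hold it. A peak assigned to the noncoding gene Mira, with an enrichment of 7.16, covered 89.1% of the Hoxa7 gene body.

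Posterior genes, of paralogue groups 9 to 13, pattern the lumbar to caudal body, the limbs and the urogenital tract. Of these, 14 of 16 had an assigned peak, again beside 53.3%. Hoxd11, which shapes the forearm together with Hoxa11, had a peak at chr2:74681251-74684300 with an enrichment of 20.7 beside 49.9 treatment and 5 input reads. Its treatment reads were above those of 54.4% of all peaks and, per kb, of 9.04%. Of all peaks, 1.74% had fewer input reads and 0.407% had fewer per kb, so that per kb both were low. Hoxa13, a gene of the digits and the genital tubercle, had a peak at chr6:52259051-52261700 with an enrichment of 13.1 beside 83.9 treatment and 13.9 input reads. Per kb, its treatment reads were above those of 77.1% of all peaks and its input reads above those of 15.8%. The part of low input in the enrichment of these peaks was not tested. Without the peaks of Hoxb3 and Hoxd11 above 20, left out after their values were seen, the median enrichment of Hox peaks was 6.69.

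The posterior genes of Hoxc all had a peak over their TSS, with best enrichments between 6.76 and 9.44. Hoxc12 had the highest of the cluster, at chr15:102936251-102938700, with an enrichment of 9.44 (61.3 treatment and 14.1 input reads). Hoxc10, which acts in lumbar motor neurons, followed with 9.30 (51.2 treatment and 11.8 input reads) at chr15:102965851-102968600. Among peaks assigned to Hoxc genes, that of Hoxc11 at chr15:102954201-102956950 had the most treatment reads, 82.0, beside 25.8 input reads and an enrichment of 6.76. The peak assigned to Mir615 in the same span had 84.9 treatment reads. In Hoxd the most treatment reads were at Hoxd9, where the peak chr2:74696451-74699300 had 96.6, beside 29.4 input reads and an enrichment of 6.76. The longest Hoxd peak, of 4200 bp, was assigned to Hoxd12 at chr2:74672351-74676550, with an enrichment of 5.80 (88.2 treatment and 28.8 input reads). Of the others, Hoxa9, Hoxa10, Hoxa11, Hoxb9, Hoxc9, Hoxc13 and Hoxd10 had best enrichments between 4.97 and 9.06.

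**Figure D4:**
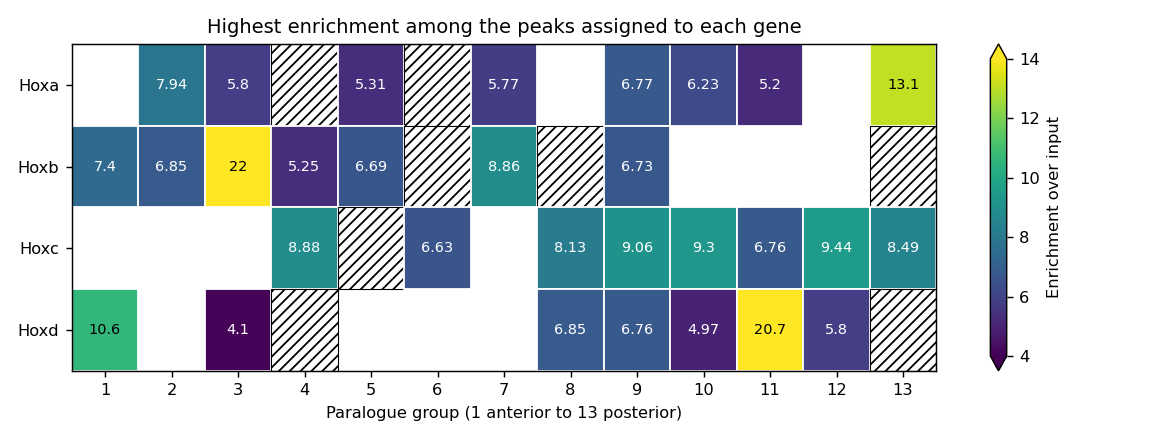
Highest enrichment over input among the peaks assigned to each of the 38 genes, by cluster (vertical) and paralogue group (horizontal), with the colour scale ending at 4 and 14. Hatched cells are listed genes without an assigned peak and blank cells hold no listed gene, and groups 1, 2, 3, 7, 9, 10, 11 and 12 have a peak in every listed gene, and 1 of 3 genes has one in group 6.

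By paralogue group, the grid of enrichments shows genes without a peak in groups 4, 5, 6, 8 and 13. In group 9 a peak was assigned in 4 of 4 clusters, and in groups 4 and 13 in 2 of 4, near the 53.3% of all protein-coding genes. The 8 genes without an assigned peak fell into those covered by a peak of a neighbour and those with no peak. Hoxa6 and Hoxb6 were overlapped over 100% of their length by the Hoxa5 and Hoxb5 peaks. Hoxb8 was overlapped over 87.0% by the Hoxb7 peak, which did not reach its TSS. Hoxc5 was overlapped over 64.1%, its TSS included, by a peak assigned to the microRNA gene Mir615 in its intron, with an enrichment of 6.27 (84.9 treatment and 26.9 input reads). Hoxd4 was overlapped over 42.6% by a peak assigned to Mir10b, with an enrichment of 5.70 (42.9 treatment and 16.9 input reads), centred 5672 bp from its TSS.

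The other 3 genes were not overlapped by a peak. Hoxd13, the most posterior gene of Hoxd, lay 747 bp from the Hoxd12 peak. Hoxb13, which is set apart from the rest of Hoxb, lay 6040 bp from a peak assigned to the noncoding gene Gm11538, with an enrichment of 6.75 (38.5 treatment and 13 input reads). Hoxa4 lay 11231 bp from the farthest Hoxa2 peak, within the 24.5 kb without a peak. A gene without a peak is one where none was called, which does not measure the absence of Zeb1.

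Most Hox peaks were close to the start of the assigned gene. Of the 41 peaks, 34 were centred within 5 kb of the assigned TSS, or 82.9%, beside 61.4% of all peaks. Within 1 kb this was 19, or 46.3%, beside 52.2% of all peaks. These were 4 of 12 peaks in Hoxa, 2 of 9 in Hoxb, 6 of 12 in Hoxc and 7 of 8 in Hoxd. Of the 34, 24 were downstream of the TSS and 10 upstream, or 70.6% downstream beside 74.8% of all peaks within 5 kb. The centre was in a coding exon for 13 peaks, in an intron for 14 and outside curated transcripts for 9, where a centre may count in more than 1 class. With noncoding genes included, 23 peaks held the start of 1 gene, 8 the starts of 2 genes and 10 none. The GC content of Hox peaks had a median of 55.4%, and that of all peaks was 55.5%.

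The Zeb1 motif was counted in Hox peaks and in all peaks of like length. A match on either strand was present in 27 of 41 Hox peaks, or 65.9% (95% Wilson interval 50.5 to 78.4%, for counting error only), and in 76.8% of all peaks, a share within that interval. Among peaks of 2400 bp and longer, 21 of 31 Hox peaks had a match, or 67.7% (50.1 to 81.4%), beside 90.6% of all peaks of this length, which lay outside the interval. The other classes hold too few Hox peaks to compare. With all peaks weighted to the lengths of the Hox peaks, the share was 86.2%, outside the interval for the 41 Hox peaks. Hox peaks held 0.422 matches per kb and all peaks 0.889. A match was present in 9 of 12 Hoxa peaks, 7 of 9 in Hoxb, 7 of 12 in Hoxc and 4 of 8 in Hoxd. The core CACCTG, whose matches partly overlap those of the motif, was in 27 of the Hox peaks and in 82.1% of all peaks. The interval for the Hox peaks was again 50.5 to 78.4%, and the share of all peaks lay outside it. The order of the clusters was another for the core, which was in 7 of 8 Hoxd peaks, 7 of 9 in Hoxb, 8 of 12 in Hoxc and 5 of 12 in Hoxa. Neighbouring Hox peaks are not independent, and no test of the difference was made.

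**Figure D5:**
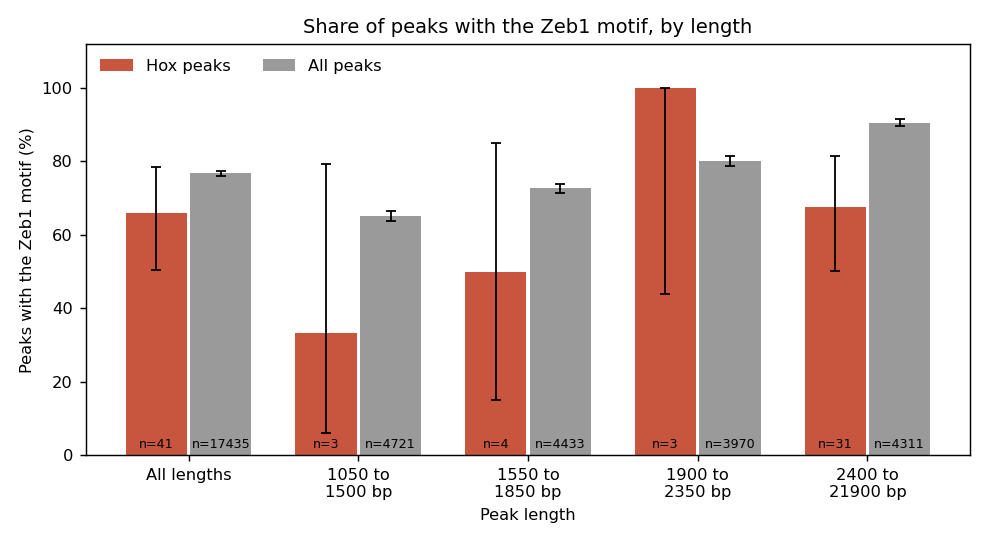
Percentage of peaks with at least 1 match of the Zeb1 motif on either strand, for Hox peaks and for all peaks, over all lengths and in each of 4 classes of peak length, with 95% Wilson intervals and the number of peaks. In the longest class, with 31 of the 41 Hox peaks, the share is 67.7% in Hox peaks and 90.6% in all peaks.

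The plot of motif shares rests mainly on the longest class, since each of the others has 3 or 4 Hox peaks. In the Hoxa5 peak 5 matches were found, the most of a Hox peak. RefSeq promoters, 300 bp around the TSS, were searched in the same way. In the table used, 22 of the 38 genes had an entry, with 24 promoters, and 0 of these held the motif or the core. These were 10 promoters in Hoxa, 10 in Hoxd, 3 in Hoxb and 1 in Hoxc, so that the search covered mainly Hoxa and Hoxd. Of all 32851 promoters, 16.9% held the motif and 20.2% the core.

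Noncoding genes lie between the Hox genes and took part of the peaks. Of the 51 peaks in the 4 spans, 39 were assigned to the listed genes and 12 to other genes, which were 2 in Hoxa, 3 in Hoxb, 2 in Hoxc and 5 in Hoxd. Of 29 noncoding genes in the spans, 22 were overlapped by a peak, beside 10.2% of all genes that are not protein-coding, pseudogenes included. At least 1 assigned peak was found for 9, beside 3.76%. As peaks cover 29.4% of the spans, the overlaps are not separate from the density of peaks. The highest enrichments among these peaks were 7.16 for a peak assigned to Mira and 7.09 for one assigned to Mir10b. Mira is a noncoding RNA gene next to Hoxa7, and its peak was centred in an intron of Hoxa7. The Mir10b peak was centred 6880 bp downstream of that gene in an intron of Hoxd3, and is annotated as a promoter at an Ensembl start site. Hotair, a long noncoding RNA gene of Hoxc named after its value was seen, had an assigned peak with 4.7 that did not overlap the gene. The median enrichment of the 12 peaks was 6.20.

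These microRNAs are shown since their genes lie in the clusters, and miR-10 and miR-196 are known to target Hox transcripts. Capitals mark the seed, bases 2 to 8 of the mature RNA, from RefSeq GRCm38.p6. miR-10a-5p, at chr11:96317186-96317208, and miR-10b-5p, at chr2:74726074-74726096, share a seed. miR-196b-5p, at chr6:52230129-52230150 on the minus strand, shares another seed with miR-196a-5p, which is encoded on the plus strand at chr11:96265187-96265208 and at chr15:102973365-102973386. miR-615-3p is at chr15:103014969-103014990. Apart from miR-196b-5p, all are on the plus strand.
miR-10a-5p: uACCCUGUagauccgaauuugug
miR-10b-5p: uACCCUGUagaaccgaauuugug
miR-196a-5p: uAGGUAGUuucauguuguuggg
miR-196b-5p: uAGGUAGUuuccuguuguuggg
miR-615-3p: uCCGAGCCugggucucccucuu

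Of the 3 genes of the miR-196 seed, Mir196b in Hoxa lay inside a peak, with an enrichment of 6.13 (89.3 treatment and 31.6 input reads), while Mir196a-1 in Hoxb and Mir196a-2 in Hoxc had no assigned peak and lay in none. Of the miR-10 genes, Mir10b had 3 assigned peaks, with enrichments of 4.00 to 7.09, and Mir10a had 1, with 5.30. The Mir10a peak did not reach the gene. Of the Mir10b peaks, 1 overlapped the gene but not the bases of miR-10b-5p, and the others were centred 6880 and 9530 bp downstream. The list annotates the latter as promoters at an Ensembl start site, and they held no TSS of a curated transcript. These microRNA genes were named after their values were seen.

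Other lists held genes that act with or upstream of the Hox genes. Of 9 TALE homeodomain genes, whose products bind DNA together with Hox proteins, 8 had an assigned peak and 6 had it within 5 kb of the TSS. Among all protein-coding genes these shares were 53.3% and 45.1%. The highest enrichments were at Pbx3, with 12.8 (100.2 treatment and 17.2 input reads) at chr2:34370451-34373400, 120 bp downstream of the TSS, and at Meis1, with 7.20 (49 and 13) at 8206 bp upstream. Of 8 upstream activators of Hox genes, 6 had a peak within 5 kb of the TSS, beside the 45.1% of all protein-coding genes. Kmt2a, a histone methyltransferase that keeps Hox genes active, had an enrichment of 8.40 (78.8 treatment and 18.8 input reads) and Cdx2, a caudal homeobox gene, had 8.28 (109.4 and 24.4). Cdx4 and Brd1 had no assigned peak.

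Evx1 and Evx2, the even-skipped genes beside the clusters, and Gsx1, Gsx2 and Pdx1, which are ParaHox genes like the caudal genes, had a peak in 5 of 5 cases and within 5 kb of the TSS in 4 of 5, beside 53.3% and 45.1% of all protein-coding genes. The highest were Pdx1, a gene of the pancreas, with an enrichment of 12.8 (55 treatment and 9 input reads), and Gsx2, a gene of the forebrain, with 11.1 (47.7 and 8.86). The median of the best enrichments was 10.8 in these 5 genes, 5.53 in the TALE genes with a peak and 6.41 in the upstream activators with a peak. The lists are short, and these medians describe them only.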

How the data were processed

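Per the submitters' notes and methods, Ion Torrent reads were aligned to mm10 with STAR 2.4.2a and deduplicated with Picard 1.136, broad peaks were called against the input with PeakRanger, those shared by 2 or more replicates were joined, and HOMER 4.7 annotated the result. The authors' read values are a signal, a mean of the reads on each peak. The deposited enrichment, treatment against input scaled for mapped reads, is a ratio. The deposited p-value, 0 for all 17435 peaks, was not used.

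Genes were assigned as deposited. All 41 Hox peaks had deposited TSS distances matching GRCm38.p6, the assembly of mm10, to 100 bp or less, with positive values downstream, which is opposite to the sign in the legend of the list. Transcripts (45756, curated), sequence and repeats came from GRCm38.p6. No test was made, since the list pools the libraries, and Wilson intervals (95%) cover counting error only. Functions were tested on simulated data. Alternatives were other rules for a gene with a peak, an enrichment of at least 5, joining peaks closer than 1 kb, spans widened by 10 kb and other motif searches.

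Members and lists were chosen with earlier results of these data known. Among peaks assigned to the listed Hox genes, values were given in each cluster for the 2 of highest enrichment, the one with the most treatment reads and the longest. They were also given for genes with at least 3 peaks or none, and for the 2 genes of highest enrichment in each other list. Python 3.11.15, NumPy 2.4.6, pandas 2.3.3, SciPy 1.17.1, pysam 0.24.0 and matplotlib 3.10.9 were used.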

Additional observations from a re-analysis of the deposited data

How the results depend on the processing

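Of 51 alternative values, 44 stayed within the limits set, which were a factor of 1.5 for counts and the 95% binomial interval for shares and for the median. These limits were uneven. A share of bases of 38.5% in Hoxa, against 42.8%, fell outside, while 5 Hoxd genes with a peak, against 7, stayed within. The alternatives also share genes and peaks, so the tally does not measure how firm the results are. The number of Hox genes with a peak was 28 to 35 over the alternatives, against 30. The median enrichment was 6.35 to 6.76, against 6.73 (5.80 to 7.81). With 10 kb on either side, the share of bases in peaks became 38.5% in Hoxa, 19.9% in Hoxb, 22.2% in Hoxc and 28.9% in Hoxd, since the flanks held fewer peaks, and the order of the clusters in this share was the same, unlike that by peaks per 100 kb with peaks joined or an enrichment of at least 5. From Hoxb9 to Hoxb1, an alternative chosen after seeing the data, the share in Hoxb was 34.2%, which placed it above Hoxc and Hoxd. Also chosen after seeing the data were the TSS inside a peak and the median without the 2 peaks above 20. The share of Hox peaks with the motif was 41.5% on the forward strand alone and 4.88% in the 200 bp at the centre, since less sequence was searched. All peaks had 54.4% and 16.6% in these searches. The first lay within the interval for the Hox peaks (27.8 to 56.6%) and the second outside it (1.35 to 16.1%).

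No paired analysis was possible because the list carries 1 mean per peak and no test was made. Leaving out a replicate was not run for the same reason. The means, from 3 Zeb1 ChIP libraries and 1 input library, have no measured error here. Input reads as low as 5 in a Hox peak limit the precision of its enrichment. Input means such as 8.14286 at Hoxb3 are not whole although there was 1 input library. Treatment means such as 88.4286 at the same peak are not whole reads divided by 3, the number of Zeb1 ChIP libraries. How many values each mean holds is not known here, so reads per kb describe these means only. Peaks of 1 cluster are neighbours and not replicates.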
